A study of Mus musculus with 6 samples.

Results

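The genes of the phagocyte NADPH oxidase were examined in frontal cortex of GFAP-IL6 and wild-type (WT) mice. The 6 genes were chosen by symbol: Cybb, Cyba, Ncf1, Ncf4, Rac2 and Hvcn1. Each of the 6 had 1 row among the 33000 genes of the count table, and all 6 passed the filter on low counts that left 15341 genes to be tested. TruSeq mRNA libraries, which cover transcripts along their full length, were made from 6 mice aged 3 months. The study's text gives C57BL/6 as the strain of the WT mice and names none for the GFAP-IL6 mice. The 3 GFAP-IL6 mice, titled HOM, were homozygous for a transgene that drives the cytokine IL6 from the promoter of Gfap, which is active in astrocytes, and the 3 WT mice were wild-type. The comparison of the genotypes served the study as a benchmark of its sequencing protocols, and the question followed here is how the oxidase genes differed between them. The labels give each library its own number within a genotype and do not say whether the mice were littermates, so p-values measure the spread between these libraries.

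The phagocyte NADPH oxidase moves electrons from NADPH across a membrane onto oxygen and so makes superoxide, which phagocytes use against microbes. Its membrane part is a heterodimer of gp91phox (NOX2, encoded by Cybb), which carries the electrons, and p22phox (Cyba), which stabilises it. The cytosolic part holds the organiser p47phox (Ncf1) and p40phox (Ncf4), which binds a phosphoinositide of phagosome membranes. The complex is switched on when these proteins and a Rac GTPase, chiefly Rac2 in blood cells, join the membrane part. The voltage-gated proton channel Hv1 (Hvcn1) lets protons follow the electrons and so keeps the charge balanced. In brain tissue the main cells known to carry this oxidase are microglia, and infiltrating neutrophils and monocytes also hold it.

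Rac2 and Rac1 encode close relatives, so the sequences were compared to see whether their reads can be told apart. The coding sequences of Rac2-201 and Rac1-201 in GENCODE M21 both had 576 bases, of which 132 differed (77.1% identity), and the longest identical run was 29 bases. The last 60 coding bases, positions 517 to 576 counted from the A of the start codon, are shown because 27 of them differed; capitals mark those bases.

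Rac2: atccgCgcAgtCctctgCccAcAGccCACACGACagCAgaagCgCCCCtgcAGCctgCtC

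Rac1: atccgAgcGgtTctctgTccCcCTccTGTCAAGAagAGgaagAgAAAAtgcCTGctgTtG

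No stretch of 50 bases in a Rac2 transcript occurred in a Rac1 transcript, and 1.29% of the 50-base stretches of Rac2 occurred in any other gene. The share was 0% for Cybb and Ncf4, 2.39% for Cyba and 7.45% for Ncf1. It was 39.7% for Hvcn1, all of it shared with Tctn1, a gene on the opposite strand whose exons cover 44.2% of the exon bases of Hvcn1. The sources used here do not state whether reads were counted by strand. How reads from this stretch were assigned to Hvcn1 or Tctn1, or whether they were counted at all, is therefore not known.

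RefSeq promoter windows, from 250 bases before to 50 bases after the start on GRCm38.p6, were matched for 3 of the 6 genes, Cyba, Cybb and Ncf1. Ncf4, Rac2 and Hvcn1 were not matched. They were searched on both strands for GAGGAA, the core bound by the myeloid factor PU.1, for TTCNNNGAA, the spaced palindrome bound by STAT factors downstream of IL6, and for the repeat bound by interferon regulatory factors (GAAA, any 2 bases, GAAA). Among 32851 windows of the same length, 28.3% held GAGGAA, 8.30% held TTCNNNGAA and 3.44% held the GAAA repeat. The Cybb window held 3 matches of the GAAA repeat and 1 of GAGGAA, and the Ncf1 window held 1 match of TTCNNNGAA that overlapped 1 of the GAAA repeat. The Cyba window held none of the 3. The parts of the windows that carry the matches are shown with the matched bases in capitals, on the gene's own strand.

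Cybb, chrX:9469310-9469574, minus strand, ending 15 bases after the start: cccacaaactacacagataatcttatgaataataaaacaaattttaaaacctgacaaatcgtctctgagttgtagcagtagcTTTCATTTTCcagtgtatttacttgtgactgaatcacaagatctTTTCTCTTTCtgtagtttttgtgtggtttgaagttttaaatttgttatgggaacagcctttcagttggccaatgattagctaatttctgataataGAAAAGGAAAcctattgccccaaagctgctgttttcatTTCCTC

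Ncf1, chr5:134229626-134229875, minus strand, ending at the base before the start: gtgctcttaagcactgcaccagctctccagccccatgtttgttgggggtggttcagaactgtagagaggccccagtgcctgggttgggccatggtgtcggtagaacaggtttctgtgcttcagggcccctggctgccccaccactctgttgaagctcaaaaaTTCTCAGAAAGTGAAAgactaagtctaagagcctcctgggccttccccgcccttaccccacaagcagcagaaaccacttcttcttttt

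The libraries held between 7.56 and 16.9 M counts (M for mega), and each GFAP-IL6 library was shallower than each WT library. A floor of 3 counts corresponded to 0.179 to 0.396 CPM, where CPM is the TMM-scaled count for each M counts of a library. The counts of Il6 were 0, 2 and 0 for WT replicates 1 to 3, against 12, 10 and 24 for GFAP-IL6 replicates 1 to 3, which follows the labels. Gfap was higher in GFAP-IL6 by 2.84 on the log2 scale (edgeR adjusted p = 5.49e-06). WT replicate 3 stood apart in choroid plexus genes, with 8766 counts of Ttr against at most 358 elsewhere, and WT replicate 2 stood apart in genes of the striatum. The number of oxidase genes called was 3 without WT replicate 3 and 4 without WT replicate 2. The median log2 fold change of all tested genes was -0.0038.

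Of the 6 oxidase genes, 3 rose in GFAP-IL6 cortex at an adjusted p under 0.05 by edgeR's quasi-likelihood test: Cyba, Ncf1 and Rac2. They were between 2.28-fold and 2.64-fold higher, and 5 of the 6 genes, all but Cybb, were higher at an unadjusted p under 0.05, as were 11.1% of all tested genes. Among all tested genes 2.65% were called higher, and 1.36% were called higher with a log2 fold change over 1, a threshold that the same 3 genes passed. Without GFAP-IL6 replicate 3 only Ncf1 was called. In all 6 genes every GFAP-IL6 library lay above every WT library, which held for 13.8% of tested genes. The median log2 fold change of the 6 genes was 1.23. Cortex tissue was sequenced whole, so more cells that express a gene and more RNA of it per cell cannot be told apart.

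**Figure D1:**
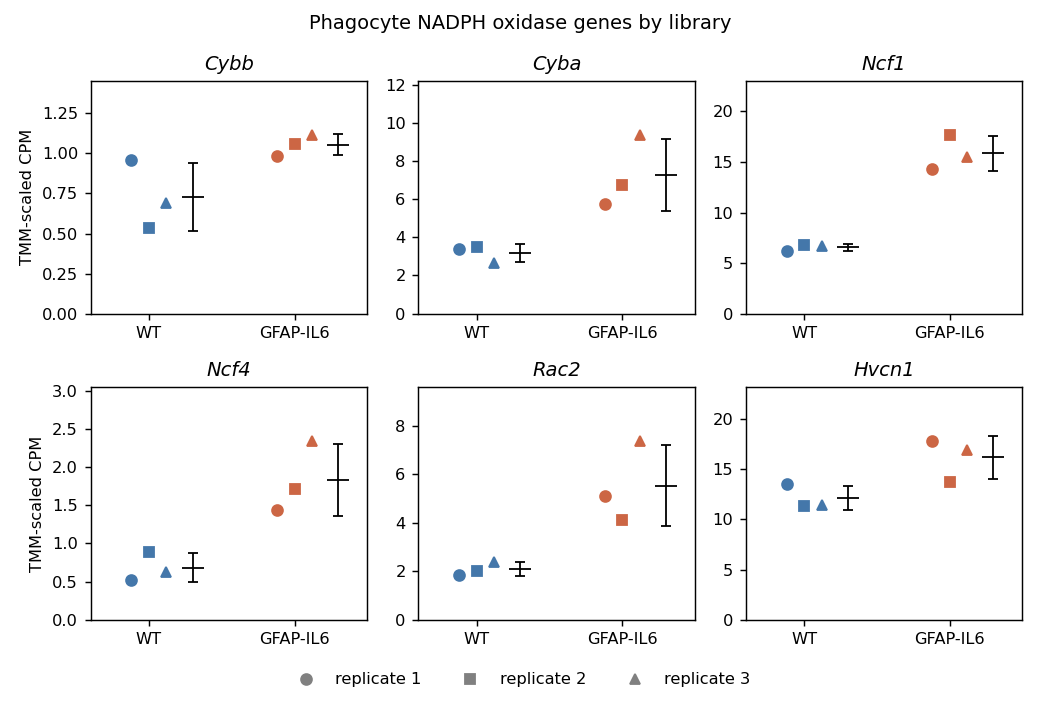
TMM-scaled CPM of the 6 oxidase genes in each library, with 1 panel per gene, WT in blue and GFAP-IL6 in red, marker shape giving the replicate, and the bar showing mean and SD (n = 3). The groups do not overlap in any panel, and the nearest libraries are close for Cybb (0.958 against 0.986 CPM) and Hvcn1 (13.5 against 13.7 CPM).

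Cybb, the catalytic subunit on chromosome X (9435252 to 9487771, minus strand, GRCm38), had the lowest level of the 6 genes once counts were divided by gene length (TPM). It had 11, 9 and 11 counts in WT replicates 1, 2 and 3, and 11, 8 and 10 counts in GFAP-IL6 replicates 1, 2 and 3. In CPM these were 0.958, 0.537 and 0.691 in WT, and 0.986, 1.06 and 1.12 in GFAP-IL6. The raw counts were nearly equal in both genotypes, and the higher CPM of GFAP-IL6 came with their shallower libraries. The WT mean was 0.729 ± 0.213 CPM, and that of GFAP-IL6 was 1.05 ± 0.065 CPM (both SD, n = 3). Its log2 fold change was 0.56 ± 0.36 (SE; edgeR adjusted p = 0.395), with a 95% interval from -0.23 to 1.35. That interval held 0 as well as the estimates for Cyba and Ncf1, so a difference was not detectable at this depth.

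Cyba, whose product is the membrane partner of gp91phox (chromosome 8, 122424776 to 122432930, minus strand), rose 2.28-fold. Its level was 3.40, 3.52 and 2.64 CPM in WT replicates 1, 2 and 3, and 5.74, 6.73 and 9.38 CPM in GFAP-IL6 replicates 1, 2 and 3. The WT libraries were close together and GFAP-IL6 replicate 3 was the highest. The log2 fold change was 1.19 ± 0.23 (SE; edgeR adjusted p = 0.0114), with a 95% interval from 0.70 to 1.68. Without GFAP-IL6 replicate 3 it was 0.97 and no longer passed (edgeR adjusted p = 0.0935).

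Ncf1, which encodes the organiser p47phox (chromosome 5, 134220053 to 134229625, minus strand), had the smallest p of the 6 genes. Its level was 6.18, 6.80 and 6.65 CPM in WT replicates 1, 2 and 3, and 14.3, 17.7 and 15.5 CPM in GFAP-IL6 replicates 1, 2 and 3. The spread within either genotype was small against the difference, with means of 6.55 ± 0.322 CPM (SD, n = 3) and 15.9 ± 1.70 CPM (SD, n = 3). Ncf1 rose by 1.26 ± 0.14 on the log2 scale (SE; edgeR adjusted p = 0.000175) with a 95% interval from 0.97 to 1.56. Exons of Gtf2ird2 on the opposite strand cover 11.1% of its exon bases, and Gtf2ird2 itself had a log2 fold change of 0.06 (edgeR adjusted p = 0.788).

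Ncf4, which encodes p40phox (chromosome 15, 78244801 to 78262580, plus strand), was measured on few counts. It had 6, 15 and 10 counts in WT replicates 1, 2 and 3, and 16, 13 and 21 in GFAP-IL6 replicates 1, 2 and 3. Scaled to depth these were 0.523, 0.895 and 0.628 CPM in WT, and 1.43, 1.72 and 2.34 CPM in GFAP-IL6. The groups were well separated in CPM, although the count of WT replicate 2 was above that of GFAP-IL6 replicate 2. The log2 fold change of 1.37 ± 0.35 (SE; 95% interval from 0.62 to 2.12) lay within the range of the genes called, but missed the threshold (edgeR adjusted p = 0.0568). Of 11 alternative fits, Ncf4 passed in 3. These were without the low-count filter (edgeR adjusted p = 0.0224), without WT replicate 2 (edgeR adjusted p = 0.0389) and with a replicate block (edgeR adjusted p = 0.0475). Among the others were DESeq2 (adjusted p = 0.149) and the fit without GFAP-IL6 replicate 3 (edgeR adjusted p = 0.320).

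Rac2, the GTPase of blood cells that switches on the complex (chromosome 15, 78559167 to 78572783, minus strand), had the largest estimate of the 6 genes. Its level was 1.83, 2.03 and 2.39 CPM in WT replicates 1, 2 and 3, and 5.11, 4.09 and 7.37 CPM in GFAP-IL6 replicates 1, 2 and 3. The lowest GFAP-IL6 library was replicate 2 and the highest replicate 3. Rac2 rose 2.64-fold, a log2 fold change of 1.40 ± 0.25 (SE; edgeR adjusted p = 0.00813) with a 95% interval from 0.85 to 1.95. Without GFAP-IL6 replicate 3 it was 1.15 and no longer passed (edgeR adjusted p = 0.0750). Gfap was also highest in that library.

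Hvcn1, the proton channel (chromosome 5, 122206804 to 122242297, plus strand), had the smallest estimate of the 6 genes. Its level was 13.5, 11.3 and 11.5 CPM in WT replicates 1, 2 and 3, and 17.8, 13.7 and 17.0 CPM in GFAP-IL6 replicates 1, 2 and 3. GFAP-IL6 replicate 2 lay only just above WT replicate 1. The log2 fold change was 0.43 ± 0.13 (SE; edgeR adjusted p = 0.11), with a 95% interval from 0.14 to 0.73 that ended below the estimates of Cyba, Ncf1, Ncf4 and Rac2. Tctn1, which shares exon bases with it, had a log2 fold change of 0.27 (edgeR adjusted p = 0.144), also with no overlap between the groups, and its part in the Hvcn1 value was not tested. Without WT replicate 1, Hvcn1 passed at 0.52 (edgeR adjusted p = 0.0496).

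**Figure D2:**
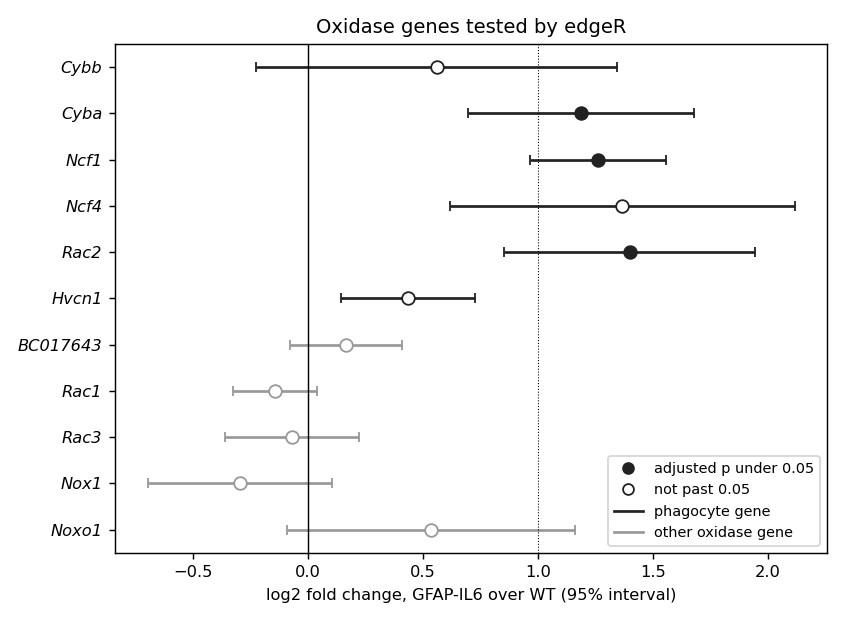
Log2 fold change (GFAP-IL6 over WT) with its 95% interval for the 6 oxidase genes and the other oxidase genes tested, filled where the edgeR adjusted p is under 0.05, with a dotted line at 1. Cyba, Ncf1 and Rac2 are the filled points, and the interval of Cybb, from -0.23 to 1.35, is the widest of the 6.

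Levels of different genes were compared in TPM, which divides counts by gene length. In WT the order was Cyba (11.7 ± 1.72 TPM; SD, n = 3), Hvcn1 (11.2 ± 1.43), Ncf1 (6.30 ± 0.154), Rac2 (1.90 ± 0.249), Ncf4 (1.29 ± 0.323) and Cybb (0.428 ± 0.137). Only the first neighbours, Cyba and Hvcn1, overlapped in their library ranges. In GFAP-IL6 the order was Cyba (28.0 ± 7.09 TPM; SD, n = 3), Ncf1 (16.0 ± 1.59), Hvcn1 (15.7 ± 2.22), Rac2 (5.30 ± 1.60), Ncf4 (3.64 ± 0.907) and Cybb (0.646 ± 0.0353). There Ncf1 and Hvcn1 overlapped, as did Rac2 and Ncf4. All 6 genes lay below the median gene in WT, which was at 20.7 TPM, and only 0.443% of tested genes had a lower WT level than Cybb.

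**Figure D3:**
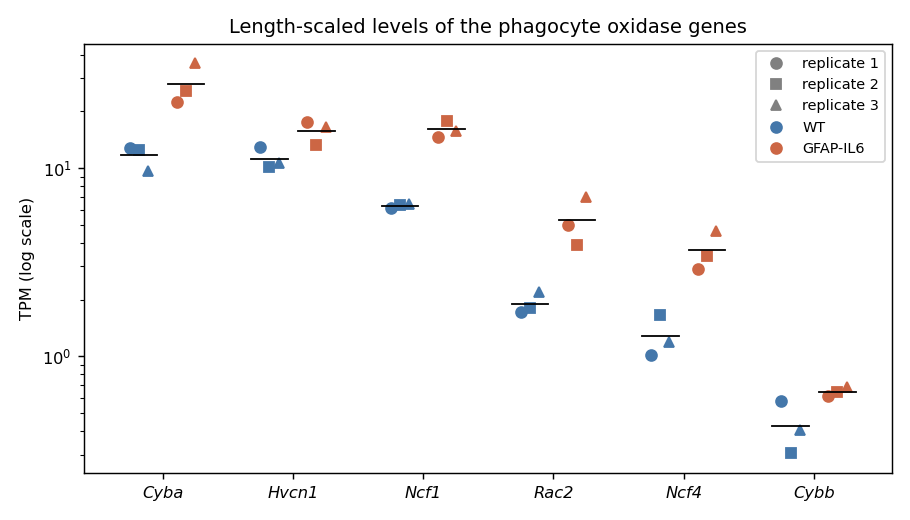
TPM of the 6 oxidase genes in each library on a log axis, WT in blue and GFAP-IL6 in red. Cyba is highest on average in both genotypes, at 11.7 TPM in WT and 28.0 TPM in GFAP-IL6, and Cybb is lowest, at 0.428 and 0.646 TPM.

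The proportions between the genes were compared as TPM ratios within each library. Of the 15 pairs, 6 had ratios that did not overlap between the genotypes. The exact two-sided permutation p of each of the 6 was 0.1, the smallest that 3 against 3 libraries allow (0.25 after adjustment over the 15 pairs). Each of the 6 held Cybb or Hvcn1, the genes with the smallest fold changes, so the count is not separate from those fold changes. How often the ratios of other gene pairs were free of overlap was not computed. Ncf1 over Hvcn1 was 0.477 to 0.624 in WT and 0.836 to 1.34 in GFAP-IL6. Cybb over Ncf1 was 0.0479 to 0.0940 in WT and 0.0362 to 0.0436 in GFAP-IL6. Cyba over Ncf1, 2 genes that rose, was 1.51 to 2.09 in WT and 1.45 to 2.30 in GFAP-IL6, and these ranges overlapped.

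Genes of myeloid cells, the class that holds microglia, rose as well. All 8 markers on the list rose at an adjusted p under 0.05, against 2.65% of all tested genes. Their median log2 fold change was 1.03, and their summed level was 230 to 264 CPM in WT and 495 to 587 CPM in GFAP-IL6. Itgam, an integrin subunit, had a log2 fold change of 2.03, and Csf1r, the receptor of the growth factor CSF1, one of 0.87. The estimates of the 8 ran from 0.63 for Cx3cr1 to 2.24 for Ptprc. Csf1r was the largest term of the sum, with means of 113 CPM in WT and 206 CPM in GFAP-IL6. Of 5 markers of homeostatic microglia, 1 rose at an adjusted p under 0.05 (Tmem119, log2 fold change 0.81, edgeR adjusted p = 0.00142). Siglech and Sall1 had log2 fold changes of 0.40 and 0.34 (edgeR adjusted p = 0.103 and 0.0948). P2ry12, a nucleotide receptor, and Gpr34 had log2 fold changes of -0.27 and -0.22 (edgeR adjusted p = 0.291 and 0.540). At an unadjusted edgeR p under 0.05, 3 of the 5 were higher, as were 11.1% of all tested genes. In the same 3 every GFAP-IL6 library lay above every WT library, which held for 13.8% of tested genes. The summed level of the 5 markers was 106 to 142 CPM in WT and 128 to 158 CPM in GFAP-IL6, ranges that overlapped. P2ry12 was the largest term of this sum.

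Markers of other cells that carry the oxidase were at or near 0, apart from Ccr2 of monocytes. Of 10 neutrophil markers, Mmp8, Elane and Cxcr2 had 0 counts in every library, 8 had at most 3 counts in every library and none had over 4. Of 4 monocyte markers, 3 had at most 3 counts in every library, and the counts of Ccr2 were 2, 11 and 8 for WT and 14, 5 and 13 for GFAP-IL6. Scaled to depth, Ccr2 was at 0.174, 0.656 and 0.502 CPM in WT and 1.25, 0.660 and 1.45 CPM in GFAP-IL6, without overlap. Ccr2 did not pass the filter on low counts and was not tested. The summed monocyte level was 0.261 to 0.656 CPM in WT and 0.924 to 1.79 CPM in GFAP-IL6. No B cell marker had over 5 counts. Of 5 T cell markers, 4 had at most 3 counts in every library. Cd3d, a part of the T cell receptor complex, had 0 counts in every library. Cd3e had 0 in each WT library and 3, 1 and 2 in GFAP-IL6 replicates 1, 2 and 3. Lck was the 1 T cell marker tested (log2 fold change 0.66, edgeR adjusted p = 0.279), with no overlap between the groups. The summed T cell level was 0.691 to 0.871 CPM in WT and 1.32 to 1.56 CPM in GFAP-IL6. Of 5 endothelial markers 3 rose at an adjusted p under 0.05, against 2.65% of all tested genes. All 5 were higher at an unadjusted edgeR p under 0.05, against 11.1%. In all 5 every GFAP-IL6 library lay above every WT library, against 13.8%. Of 6 markers of cortical neurons, 0 passed by edgeR, DESeq2 or limma-voom. At an unadjusted edgeR p under 0.05, 2 of them were lower, against 9.37% of all tested genes. The part of any of these in the oxidase values was not tested.

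Set against the summed myeloid markers, 5 of the 6 oxidase genes overlapped between the genotypes. Ncf1 was 2.52% to 2.69% of the myeloid sum in WT and 2.64% to 3.58% in GFAP-IL6, a log2 difference of 0.19 (exact two-sided permutation p = 0.2). The log2 differences of Cyba, Rac2 and Ncf4 were 0.09, 0.29 and 0.35, with exact permutation p of 0.6, 0.2 and 0.2. Cybb had a log2 difference of -0.51 (exact permutation p = 0.2). Hvcn1 was the exception without overlap, at 4.34% to 5.87% of the myeloid sum in WT and 2.78% to 3.47% in GFAP-IL6, a log2 difference of -0.67 (exact permutation p = 0.1, the smallest possible, and 0.24 after adjustment over the 6 genes). The myeloid sum itself was higher in every GFAP-IL6 library, so an unchanged gene would lie lower against it. Set against the homeostatic microglia markers instead, Cyba, Ncf1, Ncf4 and Rac2 lay higher in every GFAP-IL6 library, by 0.99, 1.09, 1.25 and 1.19 on the log2 scale (exact permutation p = 0.1 each, 0.15 adjusted). On that reference the log2 differences of Cybb and Hvcn1 were 0.38 and 0.23, both with overlap (exact permutation p = 0.4 each). The change of reference moves the log2 difference of all 6 genes by the same amount. How often the other tested genes were free of overlap on either reference was not computed.

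**Figure D4:**
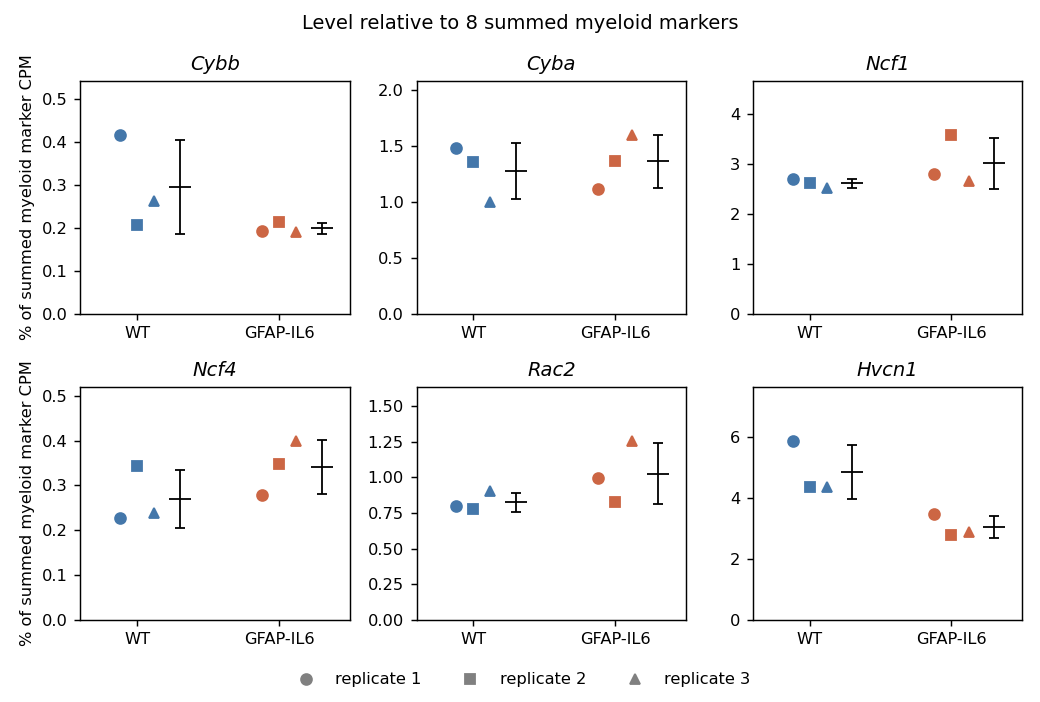
Level of each oxidase gene as a percentage of the summed CPM of 8 myeloid markers, by library, with mean and SD (n = 3) per genotype. The genotypes overlap for every gene but Hvcn1, which is at 4.34% to 5.87% in WT and 2.78% to 3.47% in GFAP-IL6. The myeloid sum itself is higher in every GFAP-IL6 library, and the share of all tested genes without overlap on this reference was not computed.

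Of 12 other NADPH oxidase genes, 5 were tested and 0 passed by edgeR, DESeq2 or limma-voom, also with 0 at an unadjusted p under 0.05. BC017643 (Cybc1), the chaperone of the membrane heterodimer, had a log2 fold change of 0.16 (edgeR adjusted p = 0.423). Rac1, the widely expressed relative of Rac2, was at 282 CPM in WT and 255 CPM in GFAP-IL6 (log2 fold change -0.14, edgeR adjusted p = 0.347), with 51.4% of its exon bases shared with Daglb on the opposite strand. Rac3 had a log2 fold change of -0.07. Nox1, a catalytic subunit of another oxidase, had one of -0.30 (edgeR adjusted p = 0.376). It shares 12.1% of its exon bases with Cstf2 on the opposite strand. The WT mean of Cstf2 was 157 CPM against 23.4 CPM for Nox1, and its part in the Nox1 value was not tested. Noxo1, the organiser of the Nox1 oxidase, had a log2 fold change of 0.53 (edgeR adjusted p = 0.314), with 70.4% of its exon bases shared with Tbl3. The remaining 7 genes, Nox3, Nox4, Noxa1, Duox1, Duox2, Duoxa1 and Duoxa2, had at most 4 counts in any library.

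Of 13 genes that act upstream in oxidase activation, 5 rose and 0 fell, against 2.65% and 0.209% of all tested genes, with a median log2 fold change of 0.64. Plcg2, a phospholipase that makes diacylglycerol, rose from 3.90 ± 0.0575 to 12.3 ± 1.20 CPM (SD, n = 3), a log2 fold change of 1.66 (edgeR adjusted p = 5.07e-05). Vav1 and Dock2, which load Rac with GTP in blood cells, rose by 1.32 and 1.12 on the log2 scale (edgeR adjusted p = 0.00098 and 0.000897). Pik3cd, a catalytic subunit of a leukocyte phosphoinositide kinase, rose by 0.74 (edgeR adjusted p = 0.00068). The fifth was Arhgdib (log2 fold change 0.74, edgeR adjusted p = 0.0459).

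Of 7 enzymes that make oxidants by other routes, 3 were tested and 1 rose. Xdh, xanthine dehydrogenase, was at 4.09, 4.12 and 5.46 CPM in WT and 12.4, 18.2 and 9.27 CPM in GFAP-IL6, higher by 1.52 on the log2 scale (edgeR adjusted p = 0.00236). Its highest library was GFAP-IL6 replicate 2, as for Ncf1. Of 24 antioxidant genes, 0 passed by edgeR, DESeq2 or limma-voom, with 8 at an unadjusted p under 0.05, 1 higher and 7 lower, against 11.1% higher and 9.37% lower of all tested genes. Hmox1, which degrades haem, had a log2 fold change of 0.73 (edgeR adjusted p = 0.0691), and Gsr, which regenerates glutathione, one of -0.38 (edgeR adjusted p = 0.0803). The median log2 fold change of the antioxidant genes was -0.11, with 19 estimates below 0 and 5 above.

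The genes whose profile over the 6 libraries was most like the mean profile of the 6 oxidase genes were taken from 15029 genes. Likeness was Pearson's r of log2(CPM + 0.5), given as a description, since all 6 libraries share the genotype difference. They were Tspo, a mitochondrial membrane protein (r = 0.998), Gcnt1, a glycosyltransferase (0.998), Sepn1, a selenoprotein (0.997), Adcy7, an adenylyl cyclase (0.996), and Igfbp7, a secreted binding protein (0.996). Tspo was at 2.26, 2.27 and 2.32 CPM in WT replicates 1, 2 and 3, and 4.93, 5.15 and 6.81 CPM in GFAP-IL6 replicates 1, 2 and 3. Like Cyba, it was highest in GFAP-IL6 replicate 3. Among the oxidase genes themselves, r with their mean was 0.977 for Cyba, 0.969 for Rac2, 0.962 for Ncf4, 0.958 for Ncf1, 0.838 for Hvcn1 and 0.779 for Cybb. Each of these genes is itself part of that mean, so high values were partly built in and do not measure how alike the genes are.

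**Figure D5:**
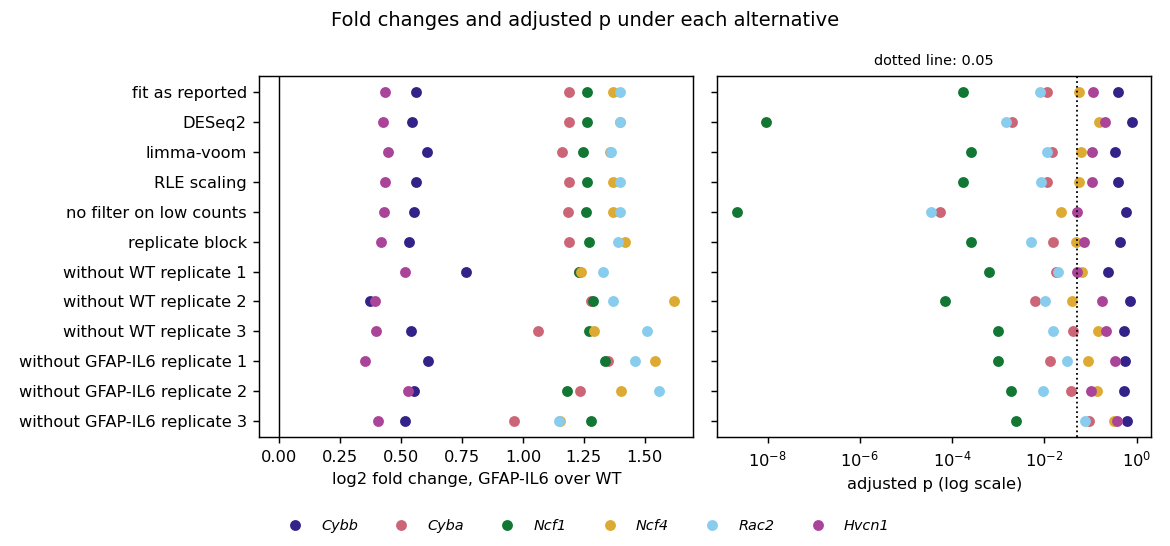
Log2 fold change and adjusted p of the 6 oxidase genes under the main test and 11 alternatives. Every estimate lies above 0, and Ncf1 passes an adjusted p of 0.05 in all 11 alternatives, Cyba and Rac2 in 10, Ncf4 in 3, Hvcn1 in 1 and Cybb in 0.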

How the data were processed

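The authors deposited counts per gene, 1 column for each of 6 libraries, as whole numbers without normalization, together with gene lengths. The study's methods name STAR 2.4 and mm10 for the alignment, and unique alignments were assigned to GENCODE M6 genes with featureCounts; use of strand is not given in the sources used here. PCR copies could not be removed, so floors cover counting error only.

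Genes were tested with edgeR 4.0.16 in R 4.3.3 (quasi-likelihood F-test, TMM scaling, filterByExpr, genotype as the only term, Benjamini-Hochberg adjustment over 15341 genes). DESeq2 1.42.0, limma-voom (limma 3.58.1), RLE scaling, no filter, a replicate block and leaving out each library were alternatives. The fits were tested on simulated data. TPM used the lengths of the table. Ratios were compared by exact permutation tests. The pairing of replicate numbers was checked by the correlation of deviations from the group means. Positions came from GENCODE M21 on GRCm38, the assembly of mm10.

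The genes and lists were chosen with earlier results of these data known. All 6 oxidase genes, Il6 and Gfap are named, and of the other lists up to 4 genes past the threshold or otherwise the 2 with the smallest p. Genes of marker lists and the fifth activation gene were named after their values were seen. From each of the lists of other oxidase genes and homeostatic microglia markers, 1 gene was left out and is not reported here.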

Additional observations from a re-analysis of the deposited data

How the results depend on the processing

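Every oxidase gene kept a positive log2 fold change under all 11 alternatives. The count of oxidase genes called was 3 with DESeq2, limma-voom and RLE scaling, 4 without the low-count filter, and 1 to 4 when single libraries were left out (also 1 to 4 with a log2 fold change over 1). It was 1 without GFAP-IL6 replicate 3. Leaving out single libraries gave log2 fold changes of 0.37 to 0.77 for Cybb, 0.97 to 1.35 for Cyba, 1.18 to 1.34 for Ncf1, 1.15 to 1.62 for Ncf4, 1.15 to 1.56 for Rac2 and 0.35 to 0.53 for Hvcn1 (edgeR adjusted p of 0.0496 without WT replicate 1). Ncf4 passed without the low-count filter at 1.37 (edgeR adjusted p = 0.0224). Over all genes, 439 were called, 1154 without the filter, and 187 (without GFAP-IL6 replicate 3) to 1061 (without WT replicate 1) when single libraries were left out, with 282 without GFAP-IL6 replicate 2; with a log2 fold change over 1 these were 211 and 129 to 239. The cause was not tested. Leaving out single libraries gave 0 calls for the other oxidase genes, 0 to 1 for the antioxidant genes, 1 to 2 for the other oxidant enzymes, 4 to 6 for the activation genes 6 to 8 for the myeloid markers and 1 to 2 for the homeostatic microglia markers (2 without WT replicate 1 or 2). Without the low-count filter, 3 antioxidant genes, 2 other oxidant enzymes and 2 homeostatic microglia markers were called.

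Same-numbered libraries did not deviate together in every pair (r = 0.123, 0.0192 and 0.0505), so the numbers were not taken as pairing. With a replicate block, 4 oxidase genes were called, Ncf4 at 1.42 (edgeR adjusted p = 0.0475), and 750 genes in all.

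Relative to homeostatic in place of myeloid markers, the log2 differences were 0.38 for Cybb, 0.99 for Cyba, 1.09 for Ncf1, 1.25 for Ncf4, 1.19 for Rac2 and 0.23 for Hvcn1. Against the myeloid markers, leaving out single libraries gave -0.73 to -0.23 for Cybb, -0.07 to 0.23 for Cyba, 0.06 to 0.28 for Ncf1, 0.23 to 0.54 for Ncf4, 0.14 to 0.44 for Rac2 and -0.76 to -0.52 for Hvcn1. Depth limits Cybb and Ncf4 most, with at most 11 and 21 counts in a library.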
